A study of Saccharomyces cerevisiae with 26 samples.

Results

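These are the 300 of 6008 yeast genes (4.99%) whose start showed the largest relative loss of H3K9ac between early and late RB, the reductive building phase of the yeast metabolic cycle. They were chosen by the H3K9ac values themselves. For each gene the mean signal of position bins 11 to 20 was taken at time point 4 (late RB) and at time point 3 (early RB), 0.05 was added to each, and the genes were ranked by the log2 ratio of time point 4 over time point 3. These bins cover the first 10 of 50 equal parts of the coding region. H3K9ac values are therefore given as a description, with no test, and the tests below concern RNA, which the choice did not use.

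H3K9ac is acetylation of lysine 9 of histone H3, a mark that is highest just downstream of active promoters and that the SAGA complex, through Gcn5, places in yeast. In continuous culture yeast alternate between an oxidative phase (OX), in which genes for growth and translation peak, the RB phase, in which mitochondrial and cell-division genes peak, and a reductive charging phase (RC), in which storage, stress and fatty acid use genes peak. Taf14 is a subunit shared by several transcription and chromatin complexes, and its YEATS domain binds acylated lysines of histone H3. Nitrogen catabolite genes, which recur below, are switched on by GATA factors when preferred nitrogen sources run short, and their permeases and enzymes take up and break down poorer sources.

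All samples were budding yeast of the CEN.PK strain in continuous culture, carrying either the TAF14[W81A] mutation, a substitution in the YEATS domain, or wild-type TAF14. RNA was sequenced from both genotypes at 5 time points, with 2 libraries in each of the 10 groups, and by the labels the OX phase holds time points 1 (early) and 2 (late), the RB phase 3 (early) and 4 (late), and the RC phase 5. ChIP was made at time points 3 and 4 with 1 library per mark and time point, so the H3K9ac change has no replicate check, and its depth is unknown. The ChIP samples are labelled CEN.PK without the mutation, that is, as wild type, and the deposited H3K9ac table does not state its scale or whether the signal was divided by that of histone H3. The labels call the 2 RNA libraries of a group replicates without naming separate cultures, so p-values measure only the spread between these samples, which may be technical.

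Each deposited RNA level is a log2 mean of 2 libraries, and the reads of each library could be recovered from its decimals. RNA values below are these reads on the authors' scaling, called scaled reads, and a library number in one group says nothing of the same number elsewhere. Genes with 1 solution in all 10 groups held 2257980 to 3750636 reads per TAF14[W81A] library and 2022539 to 3190640 per wild-type library. Of the 300 genes, 299 were tested, and EFB1, a translation elongation factor gene, could not be recovered. Bulk RNA cannot tell fewer expressing cells from less RNA per cell. Log2 changes are limma estimates with their SE, and a gene was called at an adjusted p under 0.05 (Benjamini-Hochberg over the 5977 genes tested, two-sided).

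At the 300 starts the median H3K9ac signal was 0.697 at time point 4, against 1.08 at time point 3. The corresponding medians over all 6008 genes were 0.823 at time point 4 and 0.897 at time point 3. The median log2 ratio of the 300 was -0.55, a signal at 0.682 of its early RB value, and the ratios ran between 0.506 and 0.718 of that value. Over all genes the median log2 ratio was -0.09, and 3993 of 6008 genes had a ratio below 0, so the 300 are the tail of a general shift on the deposited scale. The last genes inside the limit were QNS1 (-0.4782), SSL1 (-0.4780) and YPT10 (-0.4776), and the first outside it were CUE1 (-0.4775), MET22 (-0.4775) and MGE1 (-0.4771), so the limit falls in a continuum.

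**Figure D1:**
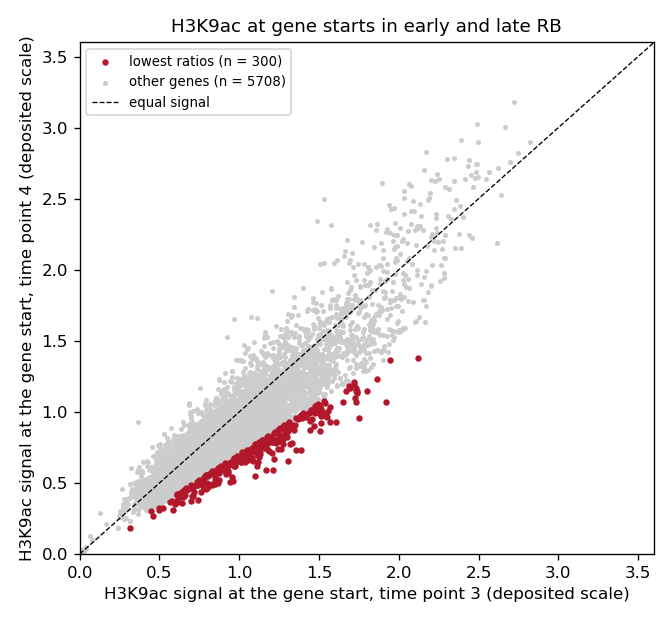
H3K9ac at gene starts (mean of bins 11 to 20, deposited scale) at time point 4 on the vertical axis against time point 3 on the horizontal axis, 1 point per gene. The 300 genes with the lowest ratio lie below the dashed line of equal signal, with a median of 0.697 at time point 4 and 1.08 at time point 3.

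The loss was deepest around the start, where the genes were chosen for it, and was smaller elsewhere along the gene. In the 200 bp upstream (bins 1 to 10) the median log2 change of the 300 genes was -0.33, against -0.08 over all genes. In the middle of the coding region it was -0.25, against -0.02 over all genes, and in its late part -0.13, against 0.01. At time point 3 the mean profile of the 300 genes peaked at bin 13 with a signal of 1.144, and at time point 4 the same bin held 0.747 while the profile rose slowly towards the end of the gene, to 0.929 at bin 57. Near the start the 300 genes kept only a low local maximum at time point 4, 0.781 at bin 10. All genes together had a clearer one there, 0.953 at bin 11, and both profiles were highest at bin 57. These regions come from the same 2 libraries as the choice of genes and are not independent of it.

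**Figure D2:**
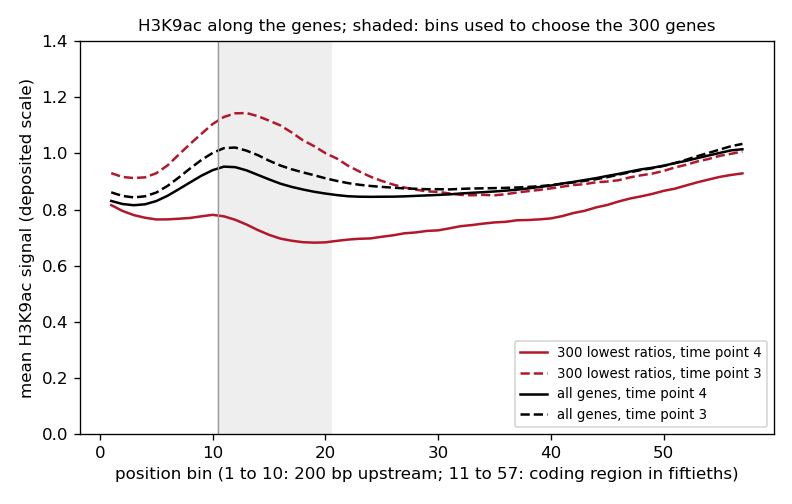
Mean H3K9ac signal (deposited scale) by position bin for the 300 genes with the lowest ratio and for all genes, at time point 4 (solid) and time point 3 (dashed). The early RB peak of the 300 genes, 1.144 at bin 13, is much reduced at time point 4, where that bin holds 0.747 and a low local maximum of 0.781 lies at bin 10.

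The 300 genes were shorter and more strongly expressed than the average gene. By length, 135 of the 1917 shortest genes were among them (7.04%), 108 of the 1914 of middle length (5.64%) and 43 of the 1916 longest (2.24%), and their median length was 956 bp, against 1236 bp over all genes. The bins used for the choice are equal parts of the coding region, so their width in bp grows with gene length. How far this bears on the difference in length was not tested. In RNA per length at time point 3 in wild type, the highest-expressed 2003 genes held 140 of them (6.99%) and the lowest-expressed 2003 held 60 (3.00%). Their median deposited RNA level (log2, per length) was 7.09 at time point 3, 6.90 at time point 4 and 6.99 at time point 5 in wild type, against 6.39, 6.36 and 6.44 over all genes. By H3K9ac at time point 3, which the ratio uses, 151 came from the 2003 highest starts. All 16 chromosomes held some of them, with the highest share on chromosome V (31 of 278 genes, 11.2%).

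Some of the starts faced each other. Of 1493 pairs of divergent neighbours, 9 had both genes among the 300 and 126 had 1. How many such pairs any 300 genes would hold was not worked out. In those 126 pairs the other gene had a median log2 ratio of -0.14, beside -0.09 over all genes. The pairs with the lowest summed ratios were HTS1 and ARP7, CMC2 and IAI11, PHO85 and TRM44, INO4 and YOL107W, and VPS25 and URA8. HTS1 (histidyl-tRNA synthetase) and ARP7 (a SWI/SNF and RSC subunit) start 505 bp apart, so their 200 bp upstream windows do not overlap. CMC2 and IAI11 start 54 bp apart, so that the upstream windows of this pair share DNA, though the bins used for the choice do not. RNA could differ between such partners. In wild type at time point 4 against 3, the CTP synthase gene URA8 rose by 0.91 (SE 0.12, adjusted p = 1.1e-05) while its partner VPS25, an ESCRT-II subunit gene, had a change of -0.04 (SE 0.15, adjusted p = 0.84).

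RNA of the 300 genes fell more often than it rose between early and late RB in wild type. Of 299 tested, 97 (32.4%) were lower at time point 4 than at time point 3, beside 20.6% of all genes. Only 42 (14.0%) were higher, beside 22.8% of all genes. The remaining 160 were not called, and the median log2 change was -0.11, against 0.00 over all genes. So for most starts that lost H3K9ac the RNA was not called lower, and for 42 it went the other way. No test of the difference in these shares was made. Under upper-quartile scaling 39.8% were lower and 11% higher, beside 26.0% and 19.2% of all genes, which takes the share of all calls that were higher to 42.5% in place of 52.5%.

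**Figure D3:**
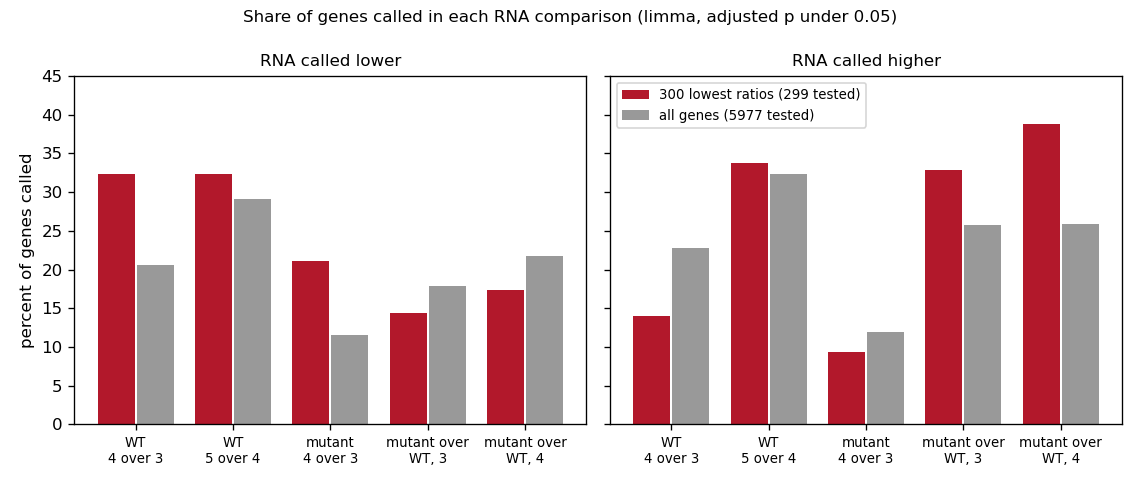
Percent of genes called lower (left panel) and higher (right panel) in 5 RNA comparisons, for the 299 tested genes with the lowest H3K9ac ratio (red) and all 5977 tested genes (grey). Late against early RB in wild type called 32.4% of the 299 genes lower, against 20.6% of all genes, and 14.0% higher, against 22.8%.

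Genes of nitrogen catabolism stood at the head of the ranking and had some of the deepest RNA losses. DAL2 (YIR029W, chromosome IX, 410807 to 411838), which encodes the allantoin-degrading enzyme allantoicase, had H3K9ac of 0.655 at time point 4 and 1.31 at time point 3, the second-lowest ratio of all genes. Its wild-type libraries held 494 and 488 scaled reads at time point 3, 115 and 133 at time point 4, and 112 and 134 at time point 5. Both early RB libraries were high and the other 4 were low without overlap, and the change at time point 4 against 3 was -1.98 ± 0.10 (log2, SE, n = 2 libraries per group, limma adjusted p = 2e-10). Between time points 5 and 4 the change was -0.02 ± 0.10 (adjusted p = 0.90).

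GZF3 (YJL110C, chromosome X, 209922 to 211577), a GATA-family repressor of nitrogen catabolite genes, had H3K9ac of 0.548 at time point 4 and 1.10 at time point 3. It had 524 and 543 scaled reads at time point 3, 148 in each library at time point 4, and 399 and 374 at time point 5 in wild type. Its RNA was thus low at time point 4 only, with no overlap, with a change of -1.85 ± 0.07 (adjusted p = 6.6e-12) and then of 1.38 ± 0.07 at time point 5 against 4 (adjusted p = 4.7e-11). DAL80 (YKR034W, chromosome XI, 506898 to 507707), a second repressor of the same GATA family, had H3K9ac of 1.07 at time point 4 and 1.92 at time point 3. Its wild-type libraries held 211 and 237 scaled reads at time point 3, 70.5 and 68.1 at time point 4, and 39.2 and 23.8 at time point 5. DAL80 stepped down at both transitions, by 1.68 ± 0.19 (adjusted p = 2.7e-06) and by 1.16 ± 0.19 (adjusted p = 5.1e-05), so the 2 repressor genes parted in RC.

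Of the 28 genes on the list of nitrogen regulators and catabolism, 5 were among the 300, and 4 of these fell at time point 4 against 3 while none rose. The whole list had 17 lower and 1 higher of 28 tested, with a median change of -0.53. The median H3K9ac log2 ratio of the list was -0.23, beside -0.09 over all genes. ICY1 (YMR195W), placed on this list although its function is not well known, had the largest fall of any of the 300 that the naming rule took. Its H3K9ac ratio was near the limit at -0.48. Wild-type libraries of ICY1 held 574 and 658 scaled reads at time point 3, 79.2 and 71.9 at time point 4, and 82.4 and 87.2 at time point 5, and the change at time point 4 against 3 was -3.01 ± 0.17 (adjusted p = 1.3e-09). DAL1, the allantoinase gene, was not called, with a change of -0.52 ± 0.21 (adjusted p = 0.0505). It shares an upstream region of 825 bp with DAL4, the allantoin permease gene, which is also among the 300 and had a change of -0.28 ± 0.13 (adjusted p = 0.10). DAL2 lies next to DAL4 on chromosome IX.

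Amino acid permease genes moved in the same direction. CAN1 (YEL063C, chromosome V, 31694 to 33466), the arginine permease gene, had H3K9ac of 0.784 at time point 4 and 1.33 at time point 3. Its wild-type libraries held 1710 and 1625 scaled reads at time point 3, 470 and 443 at time point 4, and 867 and 909 at time point 5. Time point 4 was lowest and time point 5 lay between, without overlap, with a change of -1.87 ± 0.07 (adjusted p = 6.5e-12) followed by 0.96 ± 0.07 (adjusted p = 3.3e-09). TAT2 (YOL020W, chromosome XV, 286172 to 287950), a tryptophan and tyrosine permease gene, followed the same course, with 365 and 322 scaled reads at time point 3, 105 and 124 at time point 4, and 218 and 203 at time point 5. Its changes were -1.58 ± 0.12 (adjusted p = 3.7e-08) and 0.88 ± 0.12 (adjusted p = 1e-05). Downstream of TAT2 on the same chromosome, TOS7 (YOL019W) fell by 1.57 ± 0.09 (adjusted p = 1.7e-09) and rose by 1.58 ± 0.09 (adjusted p = 3.4e-10).

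Of the 38 permease genes listed, 6 were among the 300. CAN1, TAT2, the histidine permease gene HIP1 and the glutamate and aspartate permease gene DIP5 fell, and in the whole list 19 of 38 were lower and 5 higher (median -0.50). HIP1 changed by -0.69 at time point 4 against 3 (adjusted p = 9.9e-06). DIP5 changed by -1.90 ± 0.16 at time point 4 against 3 (adjusted p = 4e-07), and because its early RB libraries had several solutions its SE comes from the remaining groups. MEP3 (YPR138C, chromosome XVI, 810984 to 812453), an ammonium permease gene, rose instead. Its wild-type libraries held 765 and 823 scaled reads at time point 3, 2242 and 2084 at time point 4, and 1417 and 1465 at time point 5. Late RB was highest without overlap, a change of 1.45 ± 0.07 (adjusted p = 1e-10), although H3K9ac at its start was 0.712 at time point 4 and 1.06 at time point 3.

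Amino acid synthesis contributed 11 of its 72 listed genes, of which 6 fell and 1 rose, while in the whole list 37 of 72 were lower and 12 higher. GDH1 (YOR375C, chromosome XV, 1041678 to 1043042), the NADP-dependent glutamate dehydrogenase that joins ammonium to 2-oxoglutarate, had the fourth-lowest ratio, with H3K9ac of 0.592 at time point 4 and 1.17 at time point 3. Only its time point 4 reads had a single solution, 3420 and 3776, and its deposited wild-type levels (log2, per length) were 11.66, 9.74 and 10.33 at time points 3, 4 and 5. The change was -1.92 ± 0.12 at time point 4 against 3 (adjusted p = 1e-05). LYS21, a homocitrate synthase gene of lysine synthesis, held 1411 and 1474 scaled reads at time point 3, 573 and 590 at time point 4, and 1336 and 1271 at time point 5. Its fall of 1.31 ± 0.09 (adjusted p = 1.2e-08) was thus followed by a rise of 1.16 ± 0.09 (adjusted p = 1.2e-08).

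Genes of serine synthesis from 3-phosphoglycerate split. The 3-phosphoglycerate dehydrogenase isozyme genes SER33 and SER3 are both among the 300, with the phosphoserine phosphatase gene SER2. SER33 held 680 and 620 scaled reads at time point 3, 351 and 399 at time point 4, and 773 and 790 at time point 5. It fell by 0.79 ± 0.13 (adjusted p = 9.4e-05), and SER2 fell by 0.98 ± 0.20 (adjusted p = 0.00078). SER3 held 505 and 397 scaled reads at time point 3, 731 and 747 at time point 4, and 701 and 671 at time point 5. It rose by 0.72 ± 0.19 (adjusted p = 0.0062), which without the second wild-type library of time point 3 was 0.55 and not called. As near-identical copies, SER3 and SER33 can share reads, so their levels are uncertain to that extent.

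The list of sulfur assimilation and methionine genes had 4 of its 30 genes among the 300, each for a step between sulfate and sulfide. These were MET3 (ATP sulfurylase), MET14 (adenylylsulfate kinase), MET16 (PAPS reductase) and MET10 (a sulfite reductase subunit). In the whole list 11 of 29 tested genes were lower and 0 higher at time point 4 against 3 (median -0.21). At time point 5 against 4, 20 were higher and 4 lower. MET16 held 269 and 311 scaled reads at time point 3, 125 and 153 at time point 4, and 457 and 435 at time point 5 in wild type. It fell by 1.06 ± 0.16 (adjusted p = 6e-05) and rose by 1.68 ± 0.16 in RC (adjusted p = 1.2e-07). MET14 fell by 0.55 ± 0.09 (adjusted p = 0.00026). MET3 had a change of 0.07 (adjusted p = 0.61) and MET10 of -0.21 (adjusted p = 0.0505), neither of which was called.

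Cytosolic ribosomal protein genes made up the largest listed group, with 17 of 133. In wild type 15 of the 17 fell at time point 4 against 3, and 15 rose at time point 5 against 4, a dip in late RB. In the whole list 106 of 123 tested genes were lower and 1 higher at time point 4 against 3 (median -0.59), and 117 were higher at time point 5 against 4 (median 1.14), while the median H3K9ac log2 ratio of the list was only -0.15. RPS19A (YOL121C) held 562 and 654 scaled reads at time point 3, 381 and 393 at time point 4, and 1258 and 1099 at time point 5. Its late RB libraries were lowest and its RC libraries highest without overlap, with changes of -0.65 ± 0.09 (adjusted p = 2.8e-05) and 1.60 ± 0.09 (adjusted p = 3.6e-10). RPS18B fell by 0.87 ± 0.10 (adjusted p = 4e-05), RPL34A by 0.86 ± 0.12 (adjusted p = 4.6e-05) and RPS24A by 0.66 ± 0.09 (adjusted p = 6.9e-05). Most of the 17 belong to pairs of near-identical copies, so the split of reads between copies is uncertain. RPL36B was called at a change of -1.0 ± 0.37 (adjusted p = 0.039) on 3.25 to 9.91 scaled reads per library, and it was not called without any one of the 4 libraries.

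Ribosome assembly genes were few, 4 of 151 listed, and behaved differently. None of NOP15, BUD22, RPA49 and NOP16 was called at time point 4 against 3, and all 4 rose at time point 5 against 4. The whole list did likewise, with 148 of 151 tested genes higher and 1 lower at time point 5 against 4 (median 2.06). At time point 4 against 3 it had 19 higher and 18 lower (median 0.04). RPA49 (YNL248C), an RNA polymerase I subunit gene, held 24.2 and 38.8 scaled reads at time point 3, 32.5 and 41.2 at time point 4, and 312 and 329 at time point 5. The early and late RB libraries overlapped and both RC libraries stood far above them, by 3.09 ± 0.16 (adjusted p = 9.2e-11). NOP15, needed for 60S subunit assembly, rose by 2.96 ± 0.18 (adjusted p = 3.7e-10), BUD22 by 1.81 ± 0.13 (adjusted p = 3.4e-09) and NOP16 by 1.68 ± 0.12 (adjusted p = 8.6e-09). The RNA polymerase III subunit gene RPC34 rose by 1.58 ± 0.13 (adjusted p = 2e-08). At these starts H3K9ac was lower in late RB while RNA was low in both RB samples.

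Of the 299 genes tested, 42 had more RNA in late RB although their starts were chosen for losing H3K9ac, and those with the largest rises were of mixed function. HRP1 (YOL123W, chromosome XV, 87844 to 89448), a subunit of the mRNA cleavage and polyadenylation factor CF I, had H3K9ac of 0.672 at time point 4 and 1.22 at time point 3, the thirteenth-lowest ratio. Its wild-type libraries held 684 and 733 scaled reads at time point 3, 4516 and 4052 at time point 4, and 2311 and 2390 at time point 5. Late RB was highest without overlap, with a rise of 2.59 ± 0.07 (adjusted p = 3.3e-13), the opposite sign to its H3K9ac. EPL1 (YFL024C), a NuA4 histone acetyltransferase subunit gene, held 670 and 652 scaled reads at time point 3, 1574 and 1491 at time point 4, and 1598 and 1680 at time point 5. It rose by 1.21 ± 0.06 (adjusted p = 5.6e-10) and had a change of 0.10 ± 0.06 at time point 5 against 4 (adjusted p = 0.20).

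CCL1, which encodes the cyclin of the TFIIH kinase, held 426 and 480 scaled reads at time point 3, 1125 and 1004 at time point 4, and 447 and 467 at time point 5. It rose by 1.23 ± 0.09 (adjusted p = 1.6e-08) and fell back by 1.22 ± 0.09 (adjusted p = 4.1e-09). The MADS-box factor gene MCM1 rose by 0.54 ± 0.10 (adjusted p = 0.00035), the SWI/SNF subunit gene SWI1 by 0.72 ± 0.08 (adjusted p = 1.5e-06) and the pyruvate dehydrogenase subunit gene LAT1 by 0.68 ± 0.08 (adjusted p = 4.2e-06). ECM8, whose function is not well known, rose by 1.12 ± 0.21 (adjusted p = 0.00035).

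Storage carbohydrate genes rose as well. All 3 listed genes among the 300 were higher at time point 4 than at time point 3 and lower at time point 5 than at time point 4. Their list of 21 had 14 higher and none lower at time point 4 against 3. At time point 5 against 4 the list had 19 lower and 1 higher (median -1.14). GPH1 (YPR160W), the glycogen phosphorylase gene, rose by 1.19 ± 0.20 (adjusted p = 0.00037). The phosphatase-targeting subunit gene GIP2 rose by 1.46 ± 0.24 (adjusted p = 0.00023), and the glycogenin gene GLG2 by 0.41 ± 0.09 (adjusted p = 0.0018). GPH1 and GIP2 had several solutions in late RB, so both SEs come from the remaining groups. GLG2 held 693 and 622 scaled reads at time point 3, 861 and 890 at time point 4, and 615 and 593 at time point 5.

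The other genes at the head of the ranking had mixed RNA. GGC1 (YDL198C, chromosome IV, 103649 to 104551), the mitochondrial GTP and GDP carrier gene, had the lowest ratio of all, with H3K9ac of 0.588 at time point 4 and 1.21 at time point 3. It held 1467 and 1389 scaled reads at time point 3, 900 and 834 at time point 4, and 634 and 579 at time point 5. The pheromone-response kinase gene FUS3 held 598 and 590, 282 and 259, and 168 and 169 at the same times. Both stepped down at each transition without overlap, GGC1 by 0.72 ± 0.08 (adjusted p = 3.3e-06) and 0.52 ± 0.08 (adjusted p = 4.1e-05), and FUS3 by 1.13 ± 0.12 (adjusted p = 1.6e-06) and 0.68 ± 0.12 (adjusted p = 0.00013).

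YCR043C fell by 0.98 ± 0.16 at time point 4 against 3 (adjusted p = 0.00013). HMF1 rose by 0.35 ± 0.06 (adjusted p = 0.00034), with 1104 and 1116 scaled reads at time point 3, 1381 and 1446 at time point 4, and 979 and 974 at time point 5. The alcohol dehydrogenase gene ADH1 was called higher by 0.45 ± 0.13 (adjusted p = 0.02), but at time points 3 and 4 only its wild-type means are known. The call was lost without any of 3 of the 4 libraries while the change stayed at 0.45, so the lost calls say nothing of a single library. YLR031W, YDR029W and YGL102C were not called, with changes of -0.26, 0.18 and -0.01. The mitochondrial carrier gene YMC2 (YBR104W), ranked 30, held 154 and 144 scaled reads at time point 3, 28.2 and 41.2 at time point 4, and 158 and 127 at time point 5. It fell by 2.09 ± 0.14 (adjusted p = 5.8e-09) and rose by 2.02 ± 0.14 (adjusted p = 1.9e-09), a dip in late RB only.

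**Figure D4:**
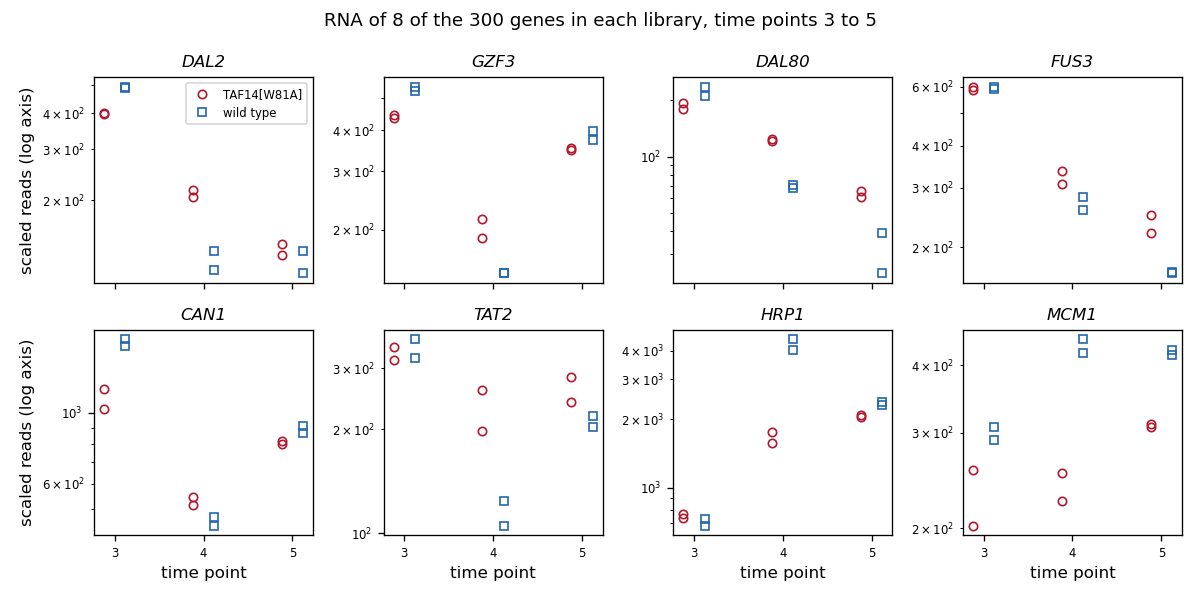
Scaled reads (log axis) of DAL2, GZF3, DAL80, FUS3, CAN1, TAT2, HRP1 and MCM1 at time points 3 to 5, 1 point per library, with TAF14[W81A] as red circles left of wild type as blue squares. At time point 4 DAL2 holds 205 and 217 scaled reads in TAF14[W81A] and 115 and 133 in wild type, while HRP1 holds 1755 and 1578 in TAF14[W81A] and 4516 and 4052 in wild type.

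Smaller listed groups were as follows in wild type at time point 4 against 3. The DNA replication genes POL31, RFC5 and RFC3 fell, by 0.30 ± 0.10 (adjusted p = 0.026), 0.46 ± 0.10 (adjusted p = 0.0014) and 0.34 ± 0.09 (adjusted p = 0.0087). Their list had 31 lower and 5 higher of 52 tested. The proteasome genes PUP3 and RPN14 rose, by 0.50 ± 0.06 (adjusted p = 2.1e-05) and 0.25 ± 0.09 (adjusted p = 0.033), in a list with 28 of 33 tested genes higher. POL31 was not called without library 2 of time point 3 or either library of time point 4 (-0.32 to -0.19), RFC3 not without library 2 of either time point (-0.31 and -0.23), and RPN14 not without any of the 4 (0.22 to 0.29) or under upper-quartile scaling (0.19). Ergosterol synthesis was divided, as the methyltransferase gene ERG6 rose by 0.73 ± 0.11 (adjusted p = 0.00033) and ERG26 fell by 0.43 ± 0.06 (adjusted p = 4.3e-05). No heat shock, beta-oxidation, histone, cyclin or peroxin gene of the lists was among the 300. Of the 28 lists, whose 1164 genes include 80 of the 300, nitrogen regulators and catabolism gave the largest share of its genes, 17.9% with ICY1 counted. Amino acid and nitrogen permeases gave 15.8% and amino acid synthesis 15.3%, so the order of these lists rests on single genes.

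In the step from late RB to RC the 300 genes moved about as often as other genes. Of 299, 101 (33.8%) were higher at time point 5 than at time point 4, beside 32.4% of all genes, and 97 (32.4%) were lower, beside 29.1%. Under upper-quartile scaling the shares were 37.5% higher and 29.8% lower, beside 37.4% and 24.3% of all genes. This comparison and that of time point 4 against 3 share the time point 4 wild-type libraries. At time point 5 against 3, which leaves those libraries out, 104 (34.8%) were lower, beside 24.7% of all genes, and 78 (26.1%) were higher, beside 32.0%. That comparison in turn shares the time point 3 wild-type libraries with time point 4 against 3, so its shares are not independent of those either.

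All 3 mitochondrial ribosomal protein genes among the 300 fell in that second step, as did 75 of the 76 tested genes of their list (median -1.52). The cytochrome oxidase assembly genes COX17 and CMC2, named for having some of the largest falls in that step, stand beside them. MRPS9 (YBR146W), a mitochondrial ribosomal protein gene, held 1848 and 1879 scaled reads at time point 3, 2117 and 2180 at time point 4, and 482 and 475 at time point 5. Its RC libraries were far below the others, by 2.16 ± 0.06 at time point 5 against 4 (adjusted p = 2.5e-13). The copper chaperone gene COX17 held 665 and 901, 922 and 875, and 174 and 150 at the same times, with overlapping RB libraries and a fall of 2.47 ± 0.12 in RC (adjusted p = 4.4e-11). MRPL7 fell by 1.81 ± 0.07 (adjusted p = 7.5e-12), CMC2 by 1.68 ± 0.09 (adjusted p = 1.6e-10) and RSM10 by 1.45 ± 0.06 (adjusted p = 8.5e-12). At time point 4 against 3 the changes of these 5 genes were small, with -0.24 for RSM10, -0.14 for MRPL7, 0.21 for MRPS9 and COX17 and 0.22 for CMC2.

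In TAF14[W81A] the same genes leaned the same way into late RB, with fewer calls. Of 299, 63 (21.1%) were lower at time point 4 than at time point 3, beside 11.6% of all genes, and 28 (9.36%) were higher, beside 11.9%. Without any 1 of the 4 mutant libraries both shares of the 299 genes were smaller. Shares over all genes were not counted in those refits, which have fewer residual degrees of freedom, so no excess can be read from them. Of the 97 genes that fell in wild type, 56 fell and 2 rose in the mutant, and 89 had a change below 0, with a median change of -0.33. Those that fell in the mutant were 57.7% of the 97, beside 45.4% of the 1234 genes of the whole table that fell in wild type, whose median was -0.27. Of the 42 that rose in wild type, 22 (52.4%) rose in the mutant, beside 44.7% of 1364 over all genes, and 5 had a change below 0. The genotypes share no library in this comparison. H3K9ac of the mutant was not analysed here, so its RNA is set beside starts chosen in samples labelled wild type.

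The change from time point 3 to 4 differed between genotypes (mutant minus wild type, 1 interaction term per gene) for 29 of the 299 genes. It was higher in the mutant for 23 (7.69%), beside 2.11% of all genes, and lower for 6 (2.01%), beside 2.93%. These counts are sensitive to single libraries. Without any 1 of the 8 libraries the share called higher was smaller, and shares over all genes were not counted in those refits. The difference contains the wild-type change with a minus sign, so it shares those libraries with the wild-type comparison.

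At time point 4 DAL2 held 205 and 217 scaled reads in TAF14[W81A] and 115 and 133 in wild type, and at time point 3 it held 396 and 401 in TAF14[W81A] and 494 and 488 in wild type. Its fall was 0.92 ± 0.10 in the mutant and 1.98 ± 0.10 in wild type, a difference of 1.06 ± 0.14 (adjusted p = 0.00018). GZF3 held 189 and 215 scaled reads at time point 4 in TAF14[W81A] and 148 in each wild-type library, and its change differed by 0.72 ± 0.10 (adjusted p = 0.00025). For CAN1 the difference was 0.80 ± 0.10 (adjusted p = 9.1e-05) and for TAT2 1.04 ± 0.17 (adjusted p = 0.0019). TAT2 held 198 and 259 scaled reads at time point 4 in TAF14[W81A], against 105 and 124 in wild type, with no overlap. DAL80 differed by 1.08 ± 0.27 (adjusted p = 0.027) and GDH1 by 0.81 ± 0.16 (adjusted p = 0.038), calls that were lost on leaving out any of the 8 libraries for DAL80 (1.00 to 1.17) and 6 of the 8 for GDH1. The 6 GDH1 libraries belong to groups in which only its mean is known, so its value stays at 0.81 without any of them and the lost calls say nothing of a single library. ICY1 fell in both genotypes, by 2.98 ± 0.17 in the mutant and 3.01 ± 0.17 in wild type, with a difference of 0.03 ± 0.25 (adjusted p = 0.96).

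Sulfate assimilation genes changed differently in the genotypes. MET14 rose by 0.96 ± 0.09 in TAF14[W81A] (adjusted p = 7e-06) and fell by 0.55 ± 0.09 in wild type, a difference of 1.51 ± 0.13 (adjusted p = 1.6e-05). MET16 held 429 and 636 scaled reads at time point 4 in TAF14[W81A] and 125 and 153 in wild type, and its change differed by 0.96 ± 0.23 (adjusted p = 0.023). MET3 and MET10, which the naming rule did not take and which are given because they complete the group, differed by 1.16 ± 0.14 (adjusted p = 0.00039) and 0.73 ± 0.11 (adjusted p = 0.0016). At time point 4 all 4 genes were higher in the mutant than in wild type, MET14 by 2.45 ± 0.09 (adjusted p = 4.1e-10) and MET16 by 1.91 ± 0.16 (adjusted p = 8.6e-08). Over all genes 25.9% were called higher in this comparison. Calls over the whole list of these genes were not counted, so whether the 4 differ from the rest of it was not tested. SER33 rose by 0.37 ± 0.13 in the mutant (adjusted p = 0.043), where it had fallen in wild type, a difference of 1.16 ± 0.18 (adjusted p = 0.00091). The rise was not called without mutant library 1 of time point 3 (0.27) or library 2 of time point 4 (0.225). The difference of MET16 was not called without any of 4 of the 8 libraries (0.68 to 0.85).

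The genes with a smaller rise in the mutant were led by HRP1. At time point 4 HRP1 held 1755 and 1578 scaled reads in TAF14[W81A] and 4516 and 4052 in wild type, and at time point 3 it held 737 and 768 in TAF14[W81A] and 684 and 733 in wild type. Both mutant libraries lay just above the wild-type ones at time point 3, a difference of 0.09 ± 0.07 (adjusted p = 0.33), and in late RB the mutant was lower by a log2 difference of -1.36 ± 0.07 (adjusted p = 5.8e-10). The difference in change was -1.45 ± 0.10 (adjusted p = 6.2e-07). MEP3 held 827 and 855 scaled reads at time point 4 in TAF14[W81A] and 2242 and 2084 in wild type, and its change differed by -1.20 ± 0.09 (adjusted p = 1.2e-06). EPL1 held 712 and 683 in TAF14[W81A] and 1574 and 1491 in wild type at time point 4, and its change differed by -0.74 ± 0.09 (adjusted p = 0.0001). LAT1, SWI1 and PUP3 complete the 6, each with a call that was lost without most of the 8 libraries.

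**Figure D5:**
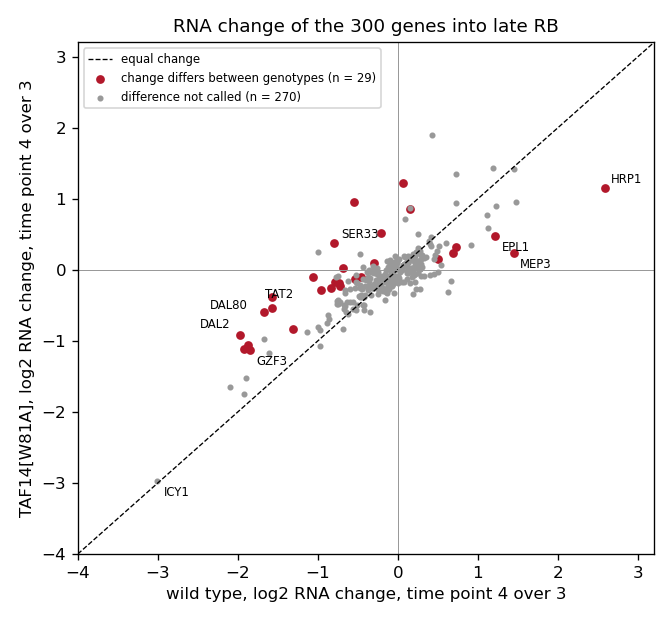
Log2 RNA change at time point 4 over 3 in TAF14[W81A] (vertical axis) against wild type (horizontal axis) for the 299 tested genes. The 29 genes whose change differed between genotypes are red, with DAL2, DAL80 and TAT2 above the line of equal change and HRP1, MEP3 and EPL1 below it, while ICY1 lies on it.

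Compared directly, RNA of the 300 genes was more often higher than lower in TAF14[W81A]. At time point 3, 98 of 299 (32.8%) were higher in the mutant, beside 25.8% of all genes, and 43 (14.4%) lower, beside 17.9%. In late RB 116 (38.8%) were higher, beside 25.9%, and 52 (17.4%) lower, beside 21.7%. At time point 5, 71 (23.7%) were higher, beside 15.1%, and 45 (15.1%) lower, beside 15.2%. Without mutant library 1 or 2 of time point 5 both shares of the 299 genes were smaller, and shares over all genes were not counted in those refits. With upper-quartile scaling the shares at time point 5 were 30.1% higher and 11% lower, beside 19.7% and 11.4% of all genes. In the authors' deposited table of mutant over wild type, at an adjusted p under 0.05, 73 of 298 of these genes (24.5%) were higher and 35 (11.7%) lower at time point 3, beside 18.4% and 15.1% of all its genes. The same table at time point 4 has 91 of 297 (30.6%) higher and 44 (14.8%) lower, and over all its genes 18.8% higher and 19.6% lower.

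Genes of translation were among the higher ones. In late RB 16 of the 17 ribosomal protein genes and all 4 ribosome assembly genes chosen by their H3K9ac ratio were higher in the mutant. Calls over the whole lists were not counted in this comparison. Whether the chosen genes differed here from the other genes of their lists was therefore not tested. RPA49 held 202 and 217 scaled reads in TAF14[W81A] and 32.5 and 41.2 in wild type at time point 4, a log2 difference of 2.48 ± 0.16 (adjusted p = 7.5e-09). At time point 3 it held 167 and 171 in TAF14[W81A] and 24.2 and 38.8 in wild type, a difference of 2.43 ± 0.16 (adjusted p = 2.6e-08), so the difference in its change into late RB was 0.05 ± 0.23 (adjusted p = 0.94). NOP15 was higher by 1.74 ± 0.18 at time point 4 (adjusted p = 6e-07), RPC34 by 1.60 ± 0.13 (adjusted p = 5.8e-08) and RPL43B by 1.33 ± 0.11 (adjusted p = 7.8e-08). The exosome cofactor gene AIR1 was higher by 1.63 ± 0.13 at time point 3 (adjusted p = 1.2e-07) and by 1.09 ± 0.13 at time point 4 (adjusted p = 4.1e-06).

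Lower in the mutant at time point 4 were, besides HRP1, MEP3 and EPL1, the genes MCM1, URA8 and EMI2. MCM1 held 253 and 224 scaled reads in TAF14[W81A] and 448 and 423 in wild type, a difference of -0.87 ± 0.10 (adjusted p = 2.2e-06). URA8 differed by -0.83 ± 0.12 (adjusted p = 2e-05) and the glucokinase-family gene EMI2 by -0.83 ± 0.19 (adjusted p = 0.0017). At time point 3 the ribosome biogenesis repressor gene DOT6 was lower by a log2 difference of -0.91 ± 0.06 (adjusted p = 2.1e-08), the NAD synthesis gene NMA1 by -0.88 ± 0.08 (adjusted p = 5.7e-07) and the SAGA subunit gene SGF29 by -0.77 ± 0.13 (adjusted p = 0.00012). SGF29, whose product reads methylated histone H3, held 154 and 129 scaled reads at time point 3 in TAF14[W81A] and 220 and 263 in wild type, and its start had H3K9ac of 0.490 at time point 4 and 0.847 at time point 3.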

How the data were processed

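The deposited RNA table gives a log2 level per gene, genotype and time point, and the authors' log2 fold changes and adjusted p-values of mutant over wild type, per the file headers. The deposited ChIP table gives an H3K9ac signal per gene, bin and time point on a scale the file does not state, with repeated lines, which were dropped. Per the submitters' processing notes the build was sacCer3, and the tools named, with no role, were deepTools, MACS2, BWA and DESeq2. The RNA kit marks strand, per the labels' protocols, and whether counting used it is not given in the sources used here.

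Position bins were decoded from neighbouring genes, whose bins lying within 8 bp of each other agreed best (Pearson r 0.992 across 20632 bin pairs, which are not independent) for 10 bins of 20 bp on each side and 50 over the coding region. Values at time point 4 were complete to bin 57. Positions and standard names come from RefSeq genes of the sacCer3 build (R64), with 286 of the 300 genes placed.

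Reads per library were recovered as whole numbers of 2 library steps in the linear level times gene length, within 1.15 roundings of the last decimal. This held for 5438 genes at the RefSeq length and for 555 at a searched one, while 15 had none, and 1.06% were whole with shuffled lengths. As a control the length was searched for 300 genes where it is known, found for 293 and right for 293. Reads had 1 solution in all groups for 5440 genes. Groups with several entered as their mean only. In R 4.3.3, limma 3.58.1 with its trend option was run on the log2 of scaled reads + 1, with 10 group means, 10 residual and 6.03 prior degrees of freedom and no filter. On simulated data for wild type at time point 4 against 3, 199 of 200 changed and 5 of 5777 unchanged genes were called. The simulated spread was set at a single small value for all genes and not estimated from these libraries. All true changes were large and none was in genes with few reads. These rates therefore need not hold for the real libraries or for small changes.

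The 300 genes, the 28 gene lists and the tests were chosen with earlier results of these data known. Named are the 12 lowest ratios, the genes beside the limit, called genes with the largest changes (named, mean of at least 50 scaled reads, libraries not overlapping), the 3 largest called changes per list, and 5 divergent pairs. Genes outside this rule, such as HIP1, DAL1, DAL4, MET3 and MET10, are named as members of a listed group and were chosen after their values were seen. Alternatives were a pseudocount of 5, a minimum mean of 20 scaled reads, upper-quartile scaling, leaving out each library, and other bins, pseudocounts and limits for the choice of genes. Promoter motifs and sequences are not used here, and H3K9cr and H3 were not analysed here.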

Additional observations from a re-analysis of the deposited data

Results flagged for a closer look

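Each result here is a change in RNA between time points 3 and 4 that differed between the genotypes by its own interaction term (limma adjusted p under 0.05). Among the 299 tested genes with the lowest H3K9ac ratio the change was higher in TAF14[W81A] than in wild type for 23 and lower for 6. The mutant change exceeded the wild-type change (log2, mutant minus wild type) by 1.51 for MET14, 1.19 for TOS7, 1.16 for SER33, 1.06 for DAL2, 1.04 for TAT2, 0.80 for CAN1 and 0.72 for GZF3, and these 7 calls held in every alternative run. It also exceeded it by 1.08 for DAL80, 0.96 for MET16, 0.81 for GDH1, 0.54 for NMA1, 0.48 for LYS21 and 0.37 for PRS3, each of which was no longer called without at least 1 of the 8 libraries.

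The difference was -1.45 for HRP1, -1.20 for MEP3 and -0.74 for EPL1, calls that held in every alternative run. It was -0.45 for LAT1, -0.39 for SWI1 and -0.34 for PUP3, and these 3 were no longer called under upper-quartile scaling or without at least 1 library.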

How the results depend on the processing

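No paired analysis was possible because the recovered libraries carry no replicate letter, and the count model named as an alternative was not run. Leaving out 1 library at a time, the share of the tested genes called higher and lower was 10.1 to 12% and 26.1 to 29.4% for wild type at time point 4 against 3. It was 6.02 to 7.36% and 12.7 to 15.4% for the mutant at time point 4 against 3, 15.1 to 17.1% and 9.70 to 11.4% for mutant against wild type at time point 5, and 4.35 to 5.69% and 1.00 to 2.68% for the genotype difference of the change. Those fits have fewer residual degrees of freedom. Shares over all genes were not counted in them, so these ranges cannot be set beside the all-gene shares of the full fit. The libraries whose loss moved a share by over 1.5 times were library 1 of time point 3 and both of time point 4 in the mutant for the first, both mutant libraries of time point 5 for the second, and each library of time points 3 and 4 of both genotypes for the third. Under upper-quartile scaling 1.00% were lower in that difference, and over all genes the share of its calls that were higher was 54.5%, against 41.9% as reported. For mutant against wild type at time point 5 this share was 63.3% against 49.9%.

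Choosing by bins 11 to 15 kept 197 of the 300 genes, and the 150 lowest ratios are 150 of them by construction. With that and the other ways of choosing, 28.5 to 35.4% fell and 12.1 to 17.1% rose in wild type at time point 4 against 3. Over 338 results of named genes, 2149 of 2431 values under an alternative kept direction and call, 282 lost the call and 0 reversed. Depth limits genes of low level, and 29 of the 300 had under 50 scaled reads at time points 3 and 4.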
